A study of Mus musculus with 8 samples.

Results

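The RNA of 10 nuclear genes whose products act at mitochondria was followed in the mouse hypothalamus at low oxygen and in room air. The genes were Bnip3, Bnip3l, Fundc1, Higd1a, Fam162a, Cox4i1, Cox4i2, Ndufa4l2, Ak4 and Lonp1. They were taken by symbol, as mitochondrial targets of hypoxia-inducible factors (HIF), mitophagy receptors and the COX4 subunits. All 10 of the 10 were found among the 55487 genes of the count table, and all 10 were among the 17047 genes that passed the filter on low counts. The libraries hold polyadenylated RNA of hypothalamus tissue from 8 C57BL/6J mice, 4 of which had spent 2 hours in a chamber at 7% oxygen (hypoxia) and 4 of which had stayed in room air, given as 21% oxygen (normoxia). No genetic change was named for either group. The whole dissected tissue was used, so fewer cells of a type and less RNA per cell cannot be told apart. Age and sex are not given in the labels used here.

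Mitophagy is the removal of mitochondria by autophagy. It can be started by receptors in the outer mitochondrial membrane that bind LC3 or GABARAP proteins on the growing autophagosome, or by the marking of damaged mitochondria with ubiquitin. Bnip3 and its relative Bnip3l (also called NIX) are receptors of the first kind and are known HIF targets in many cell types, while Fundc1 is a receptor controlled largely by phosphorylation. In cultured cells, HIF-1 is known to raise Cox4i2 and the protease gene Lonp1, whose product degrades the Cox4i1 subunit, so that one form of cytochrome c oxidase subunit 4 replaces the other.

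Total counts ran from 16994473 to 21694383 per library, and an exact permutation test of the group difference in these totals gave a two-sided p of 0.743. Of 8 genes for hypothalamic peptides, each was detected in every library, at 1.01 to 373.7 CPM (reads of the gene set against the size of its library, with a TMM factor for library composition). Neuron markers summed to 4902 to 4994 CPM in hypoxia and 4268 to 5611 CPM in normoxia. Oligodendrocyte markers varied more, at 6637 to 9805 CPM in hypoxia and 6413.5 to 11408.5 CPM in normoxia. Red blood cell markers summed to 70.7 to 245.4 CPM in hypoxia, lowest in replicate 1, and 173.0 to 277.3 CPM in normoxia. Of 5 red blood cell markers, 0 had a positive log2 fold change and 0 were called in either direction. Markers of the neighbouring cortex and the pituitary summed to 473.8 CPM in normoxia replicate 2, against 14.3 to 90.8 CPM in the other 7 libraries. All 5 of these markers had lower means in hypoxia, with a median log2 fold change of -1.46, but normoxia replicate 2 entered the normoxia means. Slc17a7, Prl and Gh reached 383.5, 40.4 and 38.9 CPM in that library. The groups overlapped in Slc17a7, Neurod6, Prl and Gh, which were not called (by edgeR, adjusted p 0.407 to 0.888). Of the 5, Neurod1, a neuronal transcription factor gene, was called lower, at 1.78 ± 0.368 CPM in hypoxia and 4.93 ± 1.01 CPM in normoxia (± SD, 4 libraries each; by edgeR, adjusted p = 0.0148), in 5 of 8 fits with 1 library left out. Their part in the results was not tested, and fits without that library are given where they change a call.

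Bnip3 was higher after 2 hours at low oxygen, and it was the member called by the test across all genes. Called means a p under 0.05 after Benjamini-Hochberg adjustment over the 17047 genes, in the quasi-likelihood test of edgeR. In all, 1 of the 10 members was called higher and 0 were called lower, where 0.915% of all genes tested were called higher and 1.23% lower. That is 156 genes higher and 210 lower, a balance that changed with the processing: with no TMM factor, 146 genes were called higher and 342 lower, and the 6 fits that left out 1 library other than hypoxia replicate 4 or normoxia replicate 2 called 24 to 42 higher and 2 to 8 lower. Ak4 and Higd1a had higher values in every hypoxia library than in any normoxia library, as Bnip3 had, but were not called. Such a separation with hypoxia higher was found in 3 of 10 members and 5.69% of all genes tested, and the reverse in 0 members and 7.75% of genes. The other 7 members overlapped between the groups. The median log2 fold change of the members was 0.10, and 7 of 10 were positive. Over all genes tested the median was -0.01 and 48.2% were positive.

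**Figure D1:**
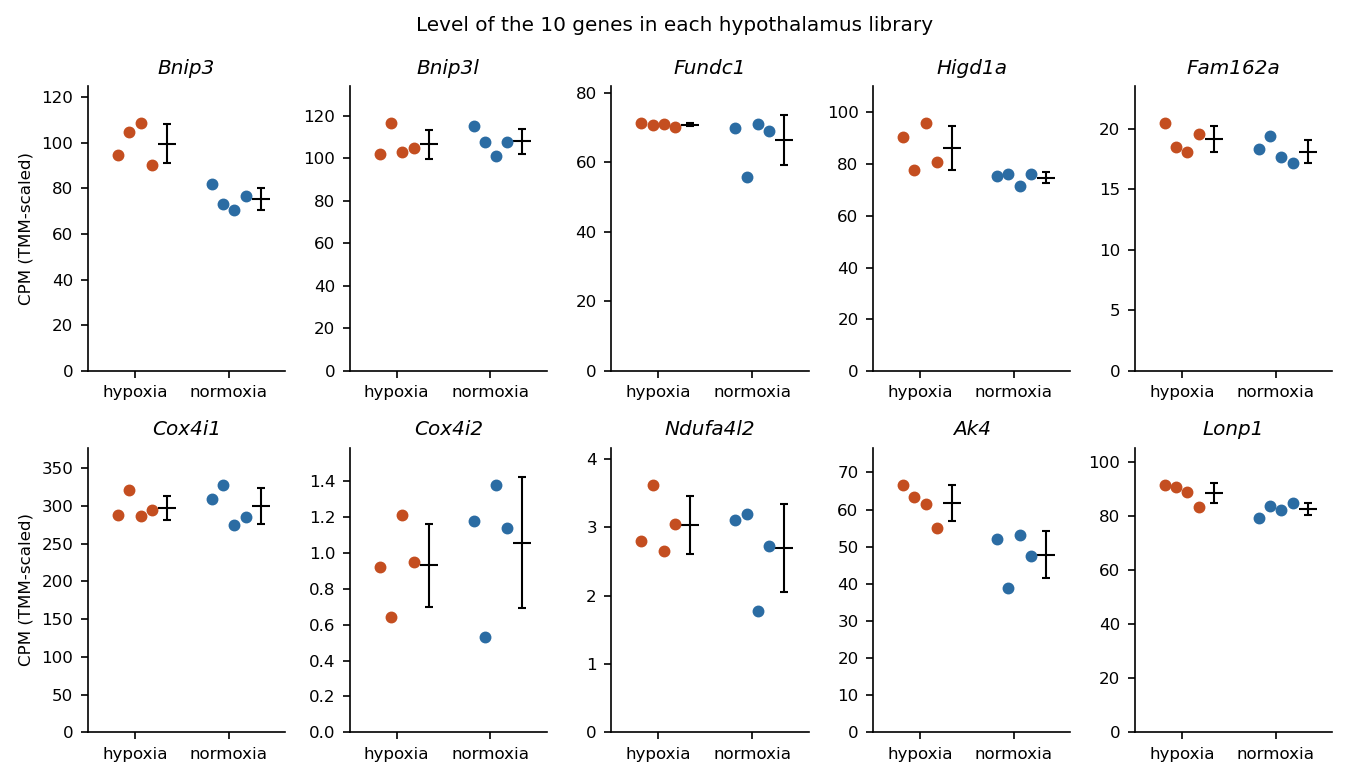
Level of each of the 10 genes in CPM (TMM-scaled), 1 panel per gene with its own axis from 0. Points are the libraries of replicates 1 to 4 from left to right in each group, and the bar beside them is the mean with its SD (n = 4). The groups are apart in Bnip3, Higd1a and Ak4 and overlap in the other 7.

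The sequences before the transcription starts are shown for the members with an entry in RefSeq (assembly GRCm38.p6), because HIF binds short motifs there. The motifs searched were ACGTG and GCGTG on both strands, and ACGTG read on both strands at once is the palindrome CACGTG. A single CACGTG therefore counts as 2 matches, in the members and in the shares over all windows. A window of 250 bases before the start was found for 6 of the 10 members, and 5 of the 6 held at least 1 match. A member was counted if any of its windows held a match, and Ak4 has 4 windows. The shares that follow are of single windows, so the units differ. At least 1 match was also found in 38.6% of the 32851 such windows in RefSeq, at least 2 in 16.7%, and CACGTG in 6.02%. The runs below go 5′ to 3′ in the direction of the gene, with matches on either strand in capitals, and leave out bases that any GENCODE exon covers. Higd1a held 2 matches but is not shown, since exons of longer transcripts cover its window. For Ak4, the most upstream of its 4 starts is shown.
Bnip3 (chr7:138909520-138909756, minus strand): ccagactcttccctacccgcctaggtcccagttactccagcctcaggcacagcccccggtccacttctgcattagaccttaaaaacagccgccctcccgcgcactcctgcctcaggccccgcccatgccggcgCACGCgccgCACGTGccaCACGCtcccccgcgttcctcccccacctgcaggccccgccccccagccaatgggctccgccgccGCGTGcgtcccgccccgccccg
Ak4 (chr4:101419039-101419276, plus strand): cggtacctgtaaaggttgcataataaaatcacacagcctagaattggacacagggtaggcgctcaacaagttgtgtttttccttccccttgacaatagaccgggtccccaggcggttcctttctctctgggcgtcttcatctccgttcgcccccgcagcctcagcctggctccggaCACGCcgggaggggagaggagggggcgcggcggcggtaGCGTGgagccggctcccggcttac
Fam162a (chr16:36071595-36071684, minus strand): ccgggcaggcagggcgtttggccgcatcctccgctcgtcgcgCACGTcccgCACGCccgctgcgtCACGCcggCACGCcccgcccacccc
Lonp1 (chr17:56626904-56627153, minus strand): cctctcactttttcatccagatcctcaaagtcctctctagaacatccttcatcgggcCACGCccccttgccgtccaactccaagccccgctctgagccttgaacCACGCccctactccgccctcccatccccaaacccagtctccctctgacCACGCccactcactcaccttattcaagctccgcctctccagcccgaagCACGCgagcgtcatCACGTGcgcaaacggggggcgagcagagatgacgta
Fundc1 (chrX:17572008-17572152, minus strand): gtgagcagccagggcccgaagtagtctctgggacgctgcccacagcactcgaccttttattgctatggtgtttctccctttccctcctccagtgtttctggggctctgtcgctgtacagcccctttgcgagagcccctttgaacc
Bnip3 held 5 matches, CACGTG among them at 108 bases before its start, and Lonp1 held 6 with CACGTG also among them. Ak4 held 2 matches at the start shown, Fam162a 6 in its whole window and 4 in the run shown, and Fundc1 held 0. The window of the most downstream Ak4 start, which is not shown, held 2 matches that together make CACGTG. A match describes the letters and does not show that HIF binds. Lonp1 and Fam162a, which held the most matches of the 6, were not called, and Bnip3 with 5 was. Whether matches go with a change was not tested.

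Among the mitophagy receptors, Bnip3 (chromosome 7, 138890836 to 138909519, GRCm38, minus strand) had 94.6, 104.8, 108.6 and 90.4 CPM in hypoxia replicates 1 to 4. It had 81.8, 73.1, 70.5 and 76.5 CPM in normoxia replicates 1 to 4. The lowest hypoxia library, replicate 4, was above the highest normoxia library, replicate 1. The means were 99.6 ± 8.49 CPM in hypoxia and 75.5 ± 4.88 CPM in normoxia (± SD, 4 libraries each). The log2 fold change was 0.40 ± 0.07 (± SE; by edgeR, Benjamini-Hochberg adjusted p = 0.0294), a 1.32-fold higher level with a 95% interval of 1.18 to 1.47. Of the 156 genes called higher, 122 had a larger log2 fold change than Bnip3. The call depended on which libraries were used: without hypoxia replicate 4 or normoxia replicate 2 the adjusted p was 0.0138 or 0.0241, and without any 1 of the other 6 libraries it was 0.0611 to 0.12. In those 6 fits, 26 to 50 genes were called in all, and the log2 fold change of Bnip3 ran from 0.36 to 0.45 over the 8 fits.

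Bnip3l, the closest relative of Bnip3 and the receptor that clears mitochondria from maturing red blood cells, was not called. It had 102.0, 116.5, 102.9 and 104.8 CPM in hypoxia and 115.2, 107.8, 101.0 and 107.6 CPM in normoxia. The groups covered nearly the same range. The log2 fold change was -0.02 ± 0.06 (± SE; by edgeR, adjusted p = 0.893), with a 95% interval of 0.900 to 1.08-fold. The ratio of the Bnip3 count to the Bnip3l count needs no scaling between libraries, and all 4 hypoxia libraries had a higher ratio than the 4 normoxia libraries. Its log2 value was -0.10 ± 0.13 in hypoxia and -0.52 ± 0.03 in normoxia (± SD, 4 libraries each), a difference of 0.42. The exact permutation test gave a two-sided p of 0.0286, the smallest that 4 against 4 libraries can give, and 0.0857 after adjustment over the 3 ratios tested. Per kilobase of exon, with all annotated exons of a gene merged, Bnip3 stood at 159.5 ± 14.3% of Bnip3l in hypoxia and 119.1 ± 2.64% in normoxia.

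Fundc1, on the X chromosome, was the steadiest member in hypoxia, at 71.3, 70.9, 71.0 and 70.3 CPM. In normoxia it had 69.8, 55.8, 71.1 and 69.0 CPM, with replicate 2 below the rest. The log2 fold change was 0.09 ± 0.07 (± SE; by edgeR, adjusted p = 0.524). Without normoxia replicate 2 it was 0.02, so most of the difference in means came with that library.

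**Figure D2:**
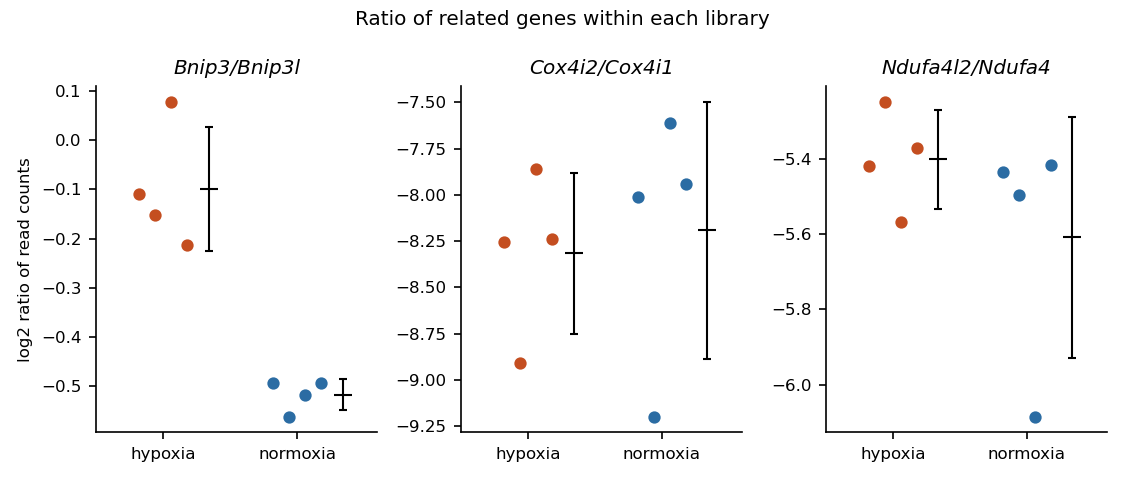
Log2 ratio of read counts for 3 pairs of related genes in each library (0.5 added to each count), hypoxia left of normoxia, with the mean and SD (n = 4). Each panel has its own vertical scale. The Bnip3/Bnip3l ratio was higher in all 4 hypoxia libraries, and the other ratios overlapped.

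Higd1a and Fam162a encode small membrane proteins of mitochondria. Higd1a is known to bind cytochrome c oxidase and to aid cell survival at low oxygen, and Fam162a, also called HGTD-P, is a HIF target linked to cell death in cultured cells. Higd1a had 90.6, 77.8, 95.9 and 80.8 CPM in hypoxia and 75.3, 76.2, 71.5 and 76.1 CPM in normoxia. Its 4 hypoxia values lay above its normoxia values, though hypoxia replicate 2 was above normoxia replicate 2 by less than the spread within hypoxia. The means were 86.3 ± 8.41 CPM in hypoxia and 74.8 ± 2.21 CPM in normoxia (± SD, 4 libraries each), a log2 fold change of 0.21 ± 0.07 (± SE; by edgeR, adjusted p = 0.143). Fam162a had 20.5, 18.5, 18.1 and 19.6 CPM in hypoxia, against 18.3, 19.4, 17.6 and 17.2 CPM in normoxia. These overlapped, with a log2 fold change of 0.08 and a 95% interval of 0.949 to 1.18-fold (adjusted p = 0.565).

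The COX4 subunit genes showed no detectable switch. Cox4i1, which encodes the common form of subunit 4 of cytochrome c oxidase, had 288.4, 320.3, 286.7 and 294.0 CPM in hypoxia and 308.9, 328.0, 275.2 and 284.9 CPM in normoxia. Its log2 fold change was -0.01 ± 0.06 (± SE; by edgeR, adjusted p = 0.951; 95% interval 0.898 to 1.10-fold). Cox4i2, the form found mainly in lung and, in brain, in pericytes, had 0.919, 0.640, 1.21 and 0.948 CPM in hypoxia and 1.18, 0.532, 1.38 and 1.14 CPM in normoxia. That is 10 to 25 reads per library, and the groups overlapped throughout. Its log2 fold change was -0.18 ± 0.31 (± SE; by edgeR, adjusted p = 0.791) with a 95% interval of 0.548 to 1.42-fold. The interval takes in both a fall and a rise, and it does not set the smallest change that the test could call. The log2 fold change was -0.38 without normoxia replicate 2 and -0.03 without normoxia replicate 3.

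The balance of the COX4 forms was read within each library. Per kilobase of exon, Cox4i2 stood at 0.621 ± 0.178% of Cox4i1 in hypoxia and 0.709 ± 0.28% in normoxia (± SD, 4 libraries each). The merged exons of Cox4i1 hold 1550 bases, though its longest protein-coding transcript has 765, and those of Cox4i2 hold 788. With the shorter Cox4i1 length the percentages would be lower in both groups. The log2 ratio of the Cox4i2 count to the Cox4i1 count differed by -0.13 between the groups (hypoxia minus normoxia; exact permutation test, two-sided p = 0.743, and 0.743 adjusted over the 3 ratios). Lonp1, the matrix protease gene, had 91.7, 90.7, 88.9 and 83.3 CPM in hypoxia and 79.4, 84.0, 82.5 and 84.8 CPM in normoxia. In 3 of 4 hypoxia libraries it was above every normoxia library, and in replicate 4 it was not. The log2 fold change was 0.10 ± 0.05 (± SE; by edgeR, adjusted p = 0.272). Of 5 genes listed as regulators of the switch, 0 were called in either direction. Rbpj and Cxxc5, which bind the Cox4i2 promoter in human cells, had log2 fold changes of -0.17 (adjusted p = 0.0878) and -0.23 (0.14).

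Cox4i1 shares 154 exon bases with Emc8, a gene on the opposite strand that encodes a subunit of a membrane protein insertion complex. Emc8 was itself called higher, at 97.9 ± 6.15 CPM in hypoxia and 73.9 ± 2.91 CPM in normoxia (± SD, 4 libraries each; log2 fold change 0.41, by edgeR, adjusted p = 0.0144), and was named after its values were seen. It was called in 3 of 8 fits with 1 library left out. The kit is stranded but the strand setting of the counting is not given in the sources used here, so reads of the shared bases are uncertain for both genes. The same holds for Bnip3 with Gm45507 and Gm18258, Higd1a with Gm47112, Fam162a with Wdr5b and Ndufa4l2 with Shmt2. The partners of Bnip3 had at most 2 counts in any library and that of Higd1a at most 11, while Shmt2 and Wdr5b had 396 to 514 and 109 to 164. Transcripts of other genes that match Bnip3 over at least 150 bases at 90% identity or more, outside these partners, held 0 to 3 counts per gene and library. The copy Bnip3l-ps held 13 to 30 counts per library, and Ak3l2-ps held 1.86% of the counts of Ak4.

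Ndufa4l2, whose product is known to lower respiration as a HIF target and which resembles the cytochrome c oxidase subunit Ndufa4, was at a low level in both groups. It had 2.80, 3.62, 2.66 and 3.04 CPM in hypoxia and 3.10, 3.19, 1.78 and 2.72 CPM in normoxia, from 31 to 68 reads. The values overlapped, with normoxia replicate 3 the lowest of the 8. The log2 fold change was 0.16 ± 0.20 (± SE; by edgeR, adjusted p = 0.703), and the 95% interval was 0.819 to 1.53-fold. It was 0.25 without normoxia replicate 2, 0.069 without hypoxia replicate 2 and 0.018 without normoxia replicate 3. Ndufa4 itself had 128.5 ± 7.45 CPM in hypoxia and 130.2 ± 12.6 CPM in normoxia. Per kilobase of exon, Ndufa4l2 was 2.97 ± 0.271% of Ndufa4 in hypoxia and 2.61 ± 0.522% in normoxia. The log2 count ratio was higher in hypoxia by 0.21, within the spread of the libraries (exact permutation test, two-sided p = 0.343, and 0.514 adjusted over the 3 ratios).

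In brain, Ndufa4l2, Cox4i2 and the HIG1 family gene Higd1b are known as pericyte genes, so the mural cell markers were read beside them. All 13 mural markers, a list that includes Higd1b itself, were detected. They summed to 329.7 to 416.9 CPM in hypoxia and 332.5 to 408.8 CPM in normoxia. Of the 13, 1 was called higher and 0 lower, and 7 had a positive log2 fold change. The called one was Kcnj8, the pore subunit of a pericyte potassium channel, at 6.55 ± 1.30 CPM in hypoxia and 3.30 ± 0.626 CPM in normoxia (± SD, 4 libraries each; adjusted p = 0.0371), which was called in 2 of 8 fits with 1 library left out. The pericyte receptor gene Pdgfrb had a log2 fold change of -0.14 and Rgs5 -0.06. Higd1b had 3.18 ± 0.577 CPM in hypoxia and 2.25 ± 0.428 CPM in normoxia (log2 fold change 0.50, by edgeR, adjusted p = 0.199). Endothelial markers summed to 401.3 to 491.8 CPM in hypoxia and 375.9 to 437.6 CPM in normoxia, but 4 of the 10 had a positive log2 fold change and the median was -0.08. Slc2a1, a glucose transporter gene and the one called higher, had 173.5 ± 24.9 CPM in hypoxia and 106.6 ± 15.3 CPM in normoxia (log2 fold change 0.70). Slco1a4 was called lower (log2 -0.48), and both calls were found in 2 of 8 fits with 1 library left out. Cldn5, a tight junction gene, was lower in every hypoxia library than in any normoxia library but was not called (log2 -0.34, by edgeR, adjusted p = 0.114).

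Ak4, which encodes an adenylate kinase of the mitochondrial matrix and is a known HIF target, had the second largest fold change of the members. It had 66.7, 63.5, 61.6 and 55.1 CPM in hypoxia and 52.0, 39.0, 53.1 and 47.4 CPM in normoxia. All hypoxia libraries were above all normoxia libraries, with hypoxia replicate 4 closest to normoxia replicate 3. The means were 61.7 ± 4.90 CPM in hypoxia and 47.9 ± 6.44 CPM in normoxia (± SD, 4 libraries each), a log2 fold change of 0.37 ± 0.10 (± SE; by edgeR, adjusted p = 0.0899; 95% interval 0.14 to 0.59 on the log2 scale). Ak4 was called higher by DESeq2 (adjusted p = 0.0215) and by edgeR without hypoxia replicate 4 and normoxia replicate 2 together (adjusted p = 0.0132). These were the 2 of 18 alternatives that called it. With 1 library left out at a time it was called in 0 of 8 edgeR fits (adjusted p 0.0534 to 0.243). Its log2 fold change was smallest, 0.28, without normoxia replicate 2, the library with its lowest value. Of 8 other adenylate kinase genes, 0 were called in either direction. Ak6 had a log2 fold change of -0.49 (adjusted p = 0.0787), with lower values in every hypoxia library than in any normoxia library.

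**Figure D3:**
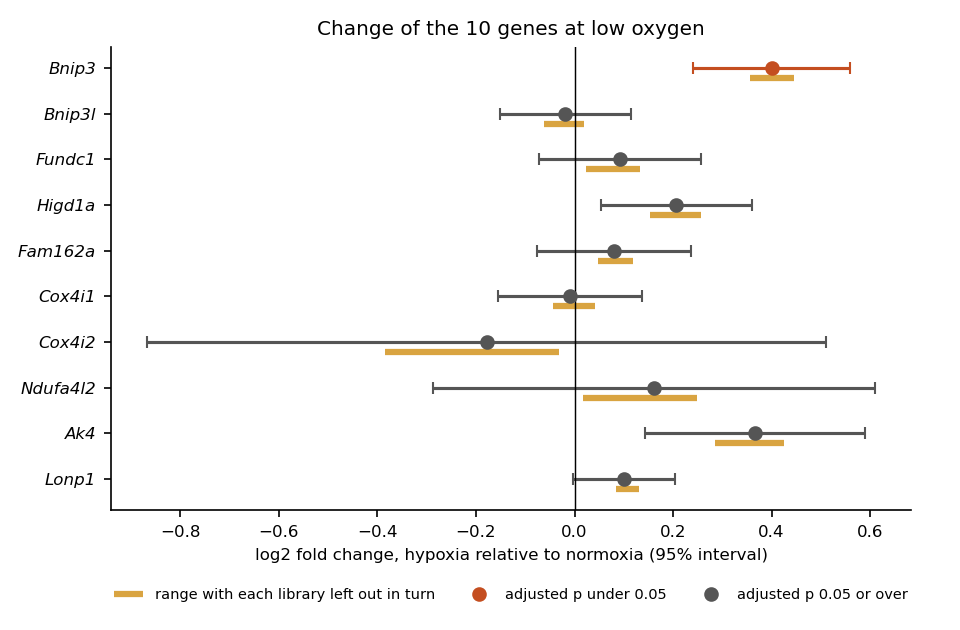
Log2 fold change of each gene, hypoxia relative to normoxia, with its 95% interval from edgeR's quasi-likelihood test (points and thin bars), and the range of values when each of the 8 libraries was left out in turn (thick bars). The intervals of Bnip3, Ak4 and Higd1a lie above 0 before adjustment over all genes. Cox4i2 and Ndufa4l2, with the fewest reads, have the widest.

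By level per exon length, the members covered a range from Cox4i1 to Cox4i2 and kept nearly the same order in both groups. The order between genes depends on the length used, here that of all annotated exons of a gene merged. Cox4i1 had 191.8 ± 10.1 CPM per kilobase in hypoxia and 193.1 ± 15.4 in normoxia (± SD, 4 libraries each). Bnip3 came next, at 44.0 ± 3.75 CPM per kilobase in hypoxia and 33.3 ± 2.15 in normoxia, with no overlap with its neighbours in either group. Fundc1, Higd1a and Bnip3l followed at 27.6 to 30.1 CPM per kilobase in hypoxia, where each overlapped the next. In normoxia Fundc1 and Bnip3l overlapped, and Higd1a came below both on average at 24.6 ± 0.728. Fam162a, Lonp1 and Ak4 came after these in both groups, at 22.5, 20.3 and 13.3 CPM per kilobase in hypoxia and 21.3, 18.9 and 10.3 in normoxia. Ndufa4l2 and Cox4i2 were last, at 2.77 and 1.18 CPM per kilobase in hypoxia, where they did not overlap, and 2.47 and 1.34 in normoxia, where they did.

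**Figure D4:**
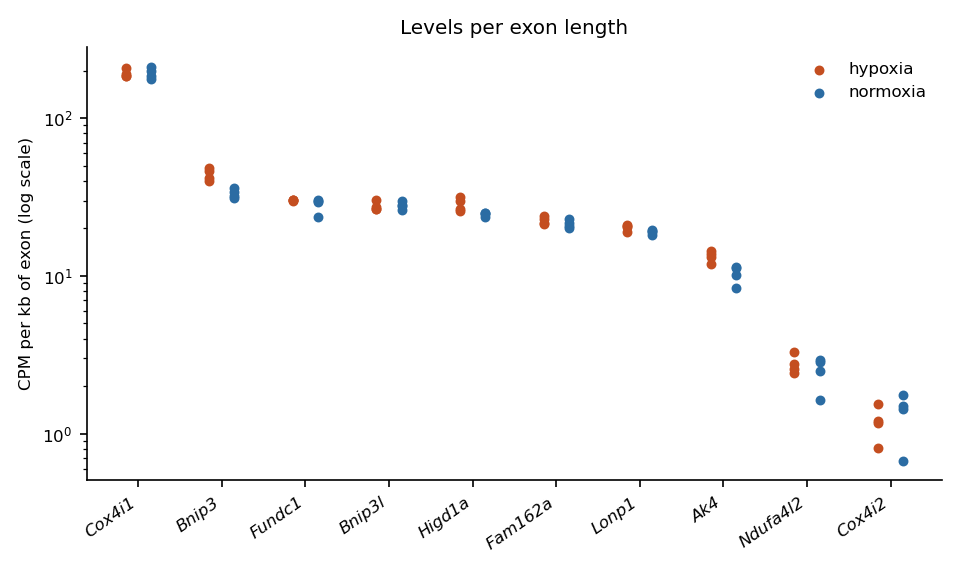
Level of each gene per exon length in each library, in CPM per kilobase of exon on a log axis, hypoxia left of normoxia, ordered by the normoxia mean. Cox4i1 is the highest, with Bnip3 next, and Ndufa4l2 and Cox4i2 are the lowest in both groups.

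The libraries of a group did not rank the same way in each gene. Hypoxia replicate 4 was the lowest of its group in 4 of the 10 genes (Bnip3, Fundc1, Ak4 and Lonp1) and the highest in 0. Normoxia replicate 2 was the lowest of its group in 3 (Fundc1, Cox4i2 and Ak4) and the highest in 4 (Higd1a, Ndufa4l2, Cox4i1 and Fam162a). Normoxia replicate 3 was the lowest in 5, Bnip3 among them, and the highest in 3.

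Other genes of the same processes were read from lists, beside 0.915% called higher and 1.23% called lower among all genes. Of 6 other mitochondrial HIF targets tested, 2 were called higher and 0 lower. Hk2, a hexokinase that binds the mitochondrial outer membrane, had 9.65 ± 1.47 CPM in hypoxia and 5.12 ± 0.661 CPM in normoxia (log2 fold change 0.91; by edgeR, adjusted p = 0.0213). Pdk1, a kinase that inhibits pyruvate entry into the citric acid cycle, had 68.0 ± 2.02 CPM in hypoxia and 55.8 ± 4.34 CPM in normoxia (± SD, 4 libraries each; log2 fold change 0.29, adjusted p = 0.0469). With 1 library left out at a time, Hk2 and Pdk1 were each called in 2 of 8 fits, those without hypoxia replicate 4 or normoxia replicate 2.

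Of 27 mitophagy genes tested outside the members, 0 were called in either direction by edgeR, and their median log2 fold change was 0.02. Gabarapl2, one of the GABARAP genes, had a log2 fold change of 0.11 (adjusted p = 0.221). Of 14 genes of the BCL2 family, to which Bnip3 is related by its BH3-like segment, 1 was called higher and 0 lower. This was Pmaip1, which encodes the cell death factor NOXA, at 4.17 ± 0.262 CPM in hypoxia and 2.40 ± 0.248 CPM in normoxia (± SD, 4 libraries each; log2 fold change 0.80, adjusted p = 0.0261), called in 2 of 8 fits with 1 library left out. Of 14 fusion and fission genes, 1 was called lower and 0 higher. It was Mief1, which recruits the fission protein DRP1 to mitochondria, at 22.9 ± 1.18 CPM in hypoxia and 28.1 ± 1.21 CPM in normoxia (log2 fold change -0.30, adjusted p = 0.0483), and it was called in 0 of 8 such fits (adjusted p 0.0514 to 0.148).

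**Figure D5:**
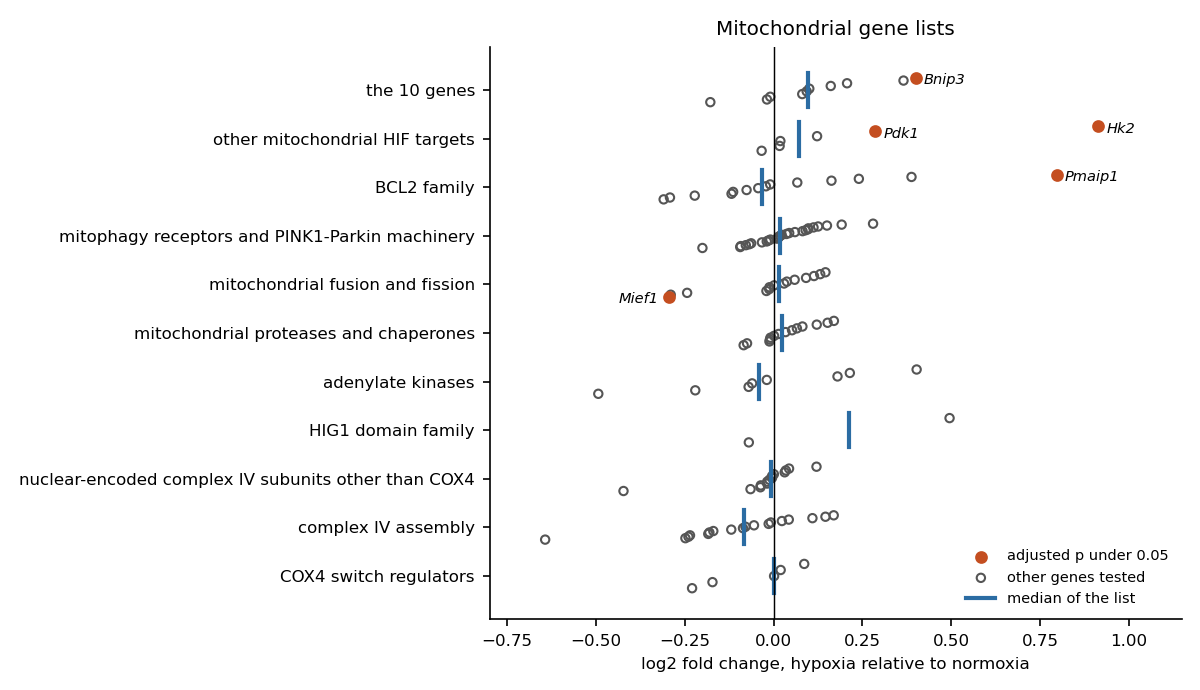
Log2 fold change, hypoxia relative to normoxia, of each tested gene in 11 lists (circles; filled and named where the adjusted p was under 0.05), with the median of each list as a bar. Bnip3, Hk2, Pdk1 and Pmaip1 were called higher and Mief1 lower, and the medians of the lists lie between -0.08 and 0.21.

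The cytochrome c oxidase lists held 0 called genes in either direction. Of 14 tested nuclear subunits other than COX4, 5 had a positive log2 fold change and the median was -0.01. Cox7a2l, a factor in supercomplex assembly, had 0.12 (adjusted p = 0.272) and the muscle form Cox6a2 had -0.42 (0.434). Of 18 assembly factors, 5 were positive and the median was -0.08. Cox17, a copper chaperone of the enzyme, had 7.04 ± 1.51 CPM in hypoxia and 11.0 ± 0.525 CPM in normoxia (± SD, 4 libraries each), a log2 fold change of -0.64 with an adjusted p of 0.0512. Cox17 was called lower in 2 of 8 fits with 1 library left out, those without hypoxia replicate 4 or normoxia replicate 2 (adjusted p 0.00494 to 0.173 over the 8). Cox15, which makes heme A, had -0.24 (0.142). Of 14 mitochondrial proteases and chaperones, the group of Lonp1, 0 were called, with Hspa9, the matrix HSP70, at 0.15 (0.129) and Afg3l2 at 0.08 (0.31). Of the HIG1 family, Higd2a had -0.07 (0.529). An unadjusted p under 0.05 by edgeR was found for 3291 genes, 19.3% of all tested, and for 3 of the 10 members.

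The genes whose levels ran most closely with each member over the 8 libraries were named from 13757 candidates by Pearson correlation of log2 CPM, which over so few libraries finds high values for many genes. For Bnip3 they were Ppp2r2d (r = 0.979), Fam20a (0.976) and Unc45a (0.975), and of these Fam20a was called higher, at a log2 fold change of 0.57. For Ak4 they were Scg5, Abca3 and Fchsd2 (0.977 to 0.979), and for Higd1a Syn3, Fam189a1 and Ntmt1 (0.948 to 0.985). For Fundc1 they were Igsf1, Hdac11 and Rit2 (0.994 to 0.995). Fundc1 had 55.8 CPM in normoxia replicate 2 and 69.0 to 71.3 CPM elsewhere, so its correlations rest largely on that library. For Ndufa4l2 they were Uqcr10, Cd163 and Ghitm, for Cox4i1 Nat8l, March5 and Agmo, and for Cox4i2 Hps6, Mapk7 and Myh7. For Bnip3l they were Ech1, Epb41l2 and Cthrc1, for Fam162a Mrpl47, Opcml and Racgap1, and for Lonp1 Pcdhga6, Cavin4 and Soat1.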

How the data were processed

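The authors deposited a table of raw read counts per Ensembl gene, 1 column for each of the 8 libraries. RNA was made into libraries with a stranded mRNA kit, per the labels' protocols. Trimmomatic, HISAT2 2.0.4, HISAT, SAMtools, featureCounts, DESeq2 and build mm10 are named per the submitters' processing notes. The annotation release, strand setting and treatment of reads with several matches were not given in those sources.

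Each column's short name was matched to the description of 1 sample. Symbols, positions and exon lengths came from GENCODE M21 (GRCm38, the assembly of mm10), which matched 55227 of 55487 IDs. The exon length of a gene is that of the exons of all its transcripts merged, which can be longer than any 1 transcript. Genes were filtered with filterByExpr (minimum count 10, minimum total 15), scaled by TMM and tested with edgeR 4.0.16 in R 4.3.3 (quasi-likelihood F test, group as the term, Benjamini-Hochberg over 17047 genes). Standard errors were taken as the log2 fold change over the square root of F, and 95% intervals use its degrees of freedom. CPM values are TMM-scaled. The members' count ratios used exact permutation over libraries.

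The labels call the libraries of a group biological replicates, and p-values measure the spread between these 8. Each pair within a group differed by more than sampling noise (chi-square per gene 4.37 to 34.6). The members and lists were chosen with earlier results of these data known. The genes named are the 10 members, the called genes of each pathway list or else the 2 with the smallest p, genes of the mural and endothelial lists, and the 3 closest genes to each member. Some genes that this rule names are not reported here. Alternatives were DESeq2 1.42.0, limma-voom (limma 3.58.1), other scalings and filters, a replicate block, and libraries left out.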

Additional observations from a re-analysis of the deposited data

Results flagged for a closer look

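Each of the 26 groups of 4 values (10 genes and 3 ratios in hypoxia and in normoxia) was examined for a library far from the other 3, by Dixon's test. Chance flags about 1 in 20 such groups, and 2 of 26 were found. Fundc1 in normoxia replicate 2, at 55.8 CPM, lay below the other normoxia libraries, at 69.0 to 71.1 CPM. The same library had the highest sum of cortex and pituitary markers, 473.8 CPM, whose part in the Fundc1 value was not tested. The log2 ratio of Ndufa4l2 to Ndufa4 in normoxia replicate 3, at -6.09, lay below the other normoxia libraries, at -5.50 to -5.42.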

How the results depend on the processing

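The edgeR test called 366 genes, of which 1 was a member, higher. DESeq2 called 1008 genes and 2 members higher (Bnip3 and Ak4), and edgeR without hypoxia replicate 4 and normoxia replicate 2 together called 1195 genes and 2 members higher. With 1 library left out, 26 to 693 genes were called in all and 24 to 329 of them higher, with 0 to 1 member called higher, and 0 members were called lower in any setting. With the replicate number as a block, 21 genes (20 higher and 1 lower) and 0 members were called, and the adjusted p of Bnip3 was 0.136. Same-numbered libraries did not deviate together (r from -0.11 to 0.04), and none correlated best with its own number. The labels name no pairing by number, and these correlations cannot show whether same-numbered libraries were handled together. Over the 18 alternatives Bnip3 was called in 11, with a log2 fold change of 0.36 to 0.45, Ak4 in 2 (0.28 to 0.42) and Higd1a in 0 (0.15 to 0.26). Other scalings and filters changed no member's call. Cox4i1 changed sign in 5 alternatives, to 0.043 without hypoxia replicate 4 and normoxia replicate 2 together and within -0.044 to 0.042 with 1 library left out. Bnip3l changed sign in 2, within -0.061 to 0.019.

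The Bnip3/Bnip3l difference kept its sign, at 0.42 with the replicate block (exact sign-flip permutation of 4 pairs, p = 0.125, the smallest they can give) and 0.44 without both libraries (exact permutation p = 0.1, the smallest that 3 against 3 can give). With 1 library left out, the log2 differences were 0.36 to 0.46 for Bnip3/Bnip3l, -0.46 to 0.072 for Cox4i2/Cox4i1 (-0.49 without both) and 0.05 to 0.27 for Ndufa4l2/Ndufa4, whose lowest was that without normoxia replicate 3. The cause of these differences was not tested, and such fits also use fewer libraries. Cox4i2 and Ndufa4l2, with 10 to 68 reads per library, have the widest intervals of the members.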
